A study of Mus musculus with 4 samples.

Results

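GzmA+ Tex is 1 of 8 clusters into which the study divided CD8+ T cells of mouse BM by their gene expression, and its 571 cells were those that carry this cluster name in the deposited cell table, out of 11754 cells in all. They made up 4.86% of all cells (95% interval 4.48% to 5.26%), with 212, 119, 83 and 157 cells in libraries 1 to 4 and between 4.14% and 5.94% of a library. The mice, on a C57BL/6 background and either WT or CRBN transgenic, received a graft of BM and T cells from genetically matched donors, and the study used them as a model of SCT for myeloma. CRBN transgenic mice carry a modified cereblon that lenalidomide can bind. Each library held CD8+ T cells sorted from the pooled BM of 5 mice at week 4 after SCT. The 4 treatments were an isotype antibody (cIg) with vehicle, αTIGIT with vehicle, cIg with lenalidomide, and αTIGIT with lenalidomide. Antibody was given from the day of SCT and lenalidomide or vehicle from day 14. The library numbers in the tables do not name a treatment, so no value below belongs to a treatment, and each treatment was 1 library of pooled mice without replicates. All intervals are at the 95% level and cover counting error only.

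Granzyme A is a protease that cytotoxic T cells release to kill a target cell. Exhausted CD8+ T cells (Tex) arise under lasting antigen exposure and carry inhibitory receptors such as PD-1, TIGIT, LAG-3 and TIM-3 together with the transcription factor TOX. Macrophages of BM make C1q, the recognition unit of the classical complement pathway, clear dying cells and old red cells, and present peptides on MHC class II molecules, which mouse T cells do not make.

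The name GzmA+ Tex was compared with the data first. Gzma (chr13:113093825-113100981, minus strand, GRCm38) had 684 counts-per-million (CPM; the UMIs of the gene over all UMIs of the cluster, scaled as CPM) in GzmA+ Tex (664 to 704). That was the fourth highest level of the 8 clusters, below TIM-3+ Tex with 1192 CPM, cycling cells with 724 and TIGIT+ Teff with 686. A Gzma UMI was found in 215 of the 571 cells, or 37.7%. After each cell was thinned at random to 2500 UMIs, the share was 26.4% (22.9% to 30.3%) in GzmA+ Tex and 35.5% in TIM-3+ Tex. Lyz2, Cd74 and Apoe, by contrast, were higher in GzmA+ Tex than in each of the other 7 clusters, and the name is used here as the label of these cells.

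GzmA+ Tex cells held a median of 10378 UMIs and 3052 genes, against 5545 UMIs and 1978 genes in transitory Teff and 13960 UMIs in cycling cells. At 2500 UMIs per cell the median number of genes was 1162 in GzmA+ Tex and 1142 in transitory Teff. The median mitochondrial share was 1.94%. Of the 571 cells, 557 also carried the Leiden number of this cluster. The first 16 bases of the cell barcode were found in more than 1 library for 56 barcodes, which included 6 GzmA+ Tex cells. The study kept cells by their Cd3e/g and Cd8a expression, so the presence of these transcripts was largely set by that filter. Of the 571 cells, 562 had a Cd3e UMI and 541 a Cd8a UMI, although 6 had neither Cd3e, Cd3g nor Cd8a.

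Complement and macrophage transcripts were many times higher in GzmA+ Tex than in any other cluster. The 3 C1q genes lie side by side on chromosome 4, with C1qa at chr4:136895917-136898803 on the minus strand. C1qa had 168, 132, 112 and 137 CPM in libraries 1 to 4 of GzmA+ Tex, and 3.55, 2.30, 2.95 and 3.04 CPM in transitory Teff, the cluster that shared the largest number of clonotypes with GzmA+ Tex. Every library of GzmA+ Tex was far above every library of transitory Teff. The pooled log2 ratio of C1qa was 5.59 (5.12 to 6.09), that of C1qb was 5.82 and that of C1qc was 5.63. Summed over the 8 genes of the complement list, GzmA+ Tex had 512 CPM (libraries 437 to 553), transitory Teff 10.2 CPM, and the other clusters 3.39 to 36.6 CPM.

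The macrophage identity list gave the same picture with more spread between libraries. Its 17 genes summed to 838 CPM (libraries 565 to 1132), against 10.7 to 92.0 CPM in the other 7 clusters. Apoe, a carrier of lipids, had 321, 220, 180 and 293 CPM in libraries 1 to 4 and 3.08 CPM in transitory Teff. Vcam1, an adhesion molecule of BM stroma and macrophages, had 52.1, 44.6, 60.0 and 49.3 CPM and 1.31 CPM in transitory Teff. Receptors that define macrophages were also present at lower levels. Csf1r, the receptor for the growth factor M-CSF, had 15.8 CPM and Adgre1, which encodes F4/80, had 9.97 CPM, and both had 0.231 CPM in transitory Teff.

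**Figure D1:**
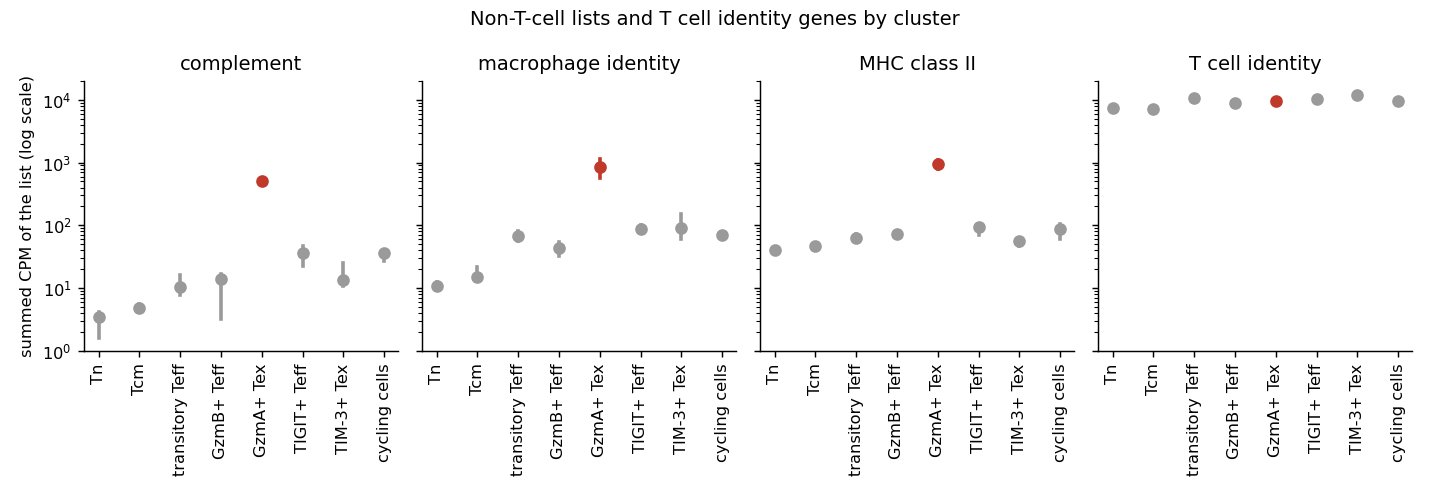
Summed CPM (log axis) of 3 lists of non-T-cell genes and of the T cell identity list in the 8 clusters, with points for all cells of a cluster and lines for the range over the 4 libraries. GzmA+ Tex (red) had 512 CPM of complement, 838 CPM of macrophage identity and 960 CPM of MHC class II transcripts, above the other clusters, while its 9686 CPM of T cell identity transcripts lay within their range.

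Most measured MHC class II genes and single genes of heme handling, lysosomes and lipid handling were higher as well. Cd74, the invariant chain that escorts MHC class II molecules, had 559, 408, 387 and 476 CPM in libraries 1 to 4, against 7.37 to 21.9 CPM in the libraries of transitory Teff. H2-Aa, H2-Ab1 and H2-Eb1, which encode class II chains, had log2 ratios of 6.34, 5.87 and 5.75. Hmox1, which breaks down heme, had 61.0, 75.3, 245 and 60.7 CPM, so that library 3 stood above the other libraries, and the log2 ratio was 3.42 (3.12 to 3.73). The ferritin genes Fth1 and Ftl1 were abundant in both clusters and had log2 ratios of 0.81 and 0.97, under the fold used for a call. Among lysosomal genes, Grn had 66.2 CPM against 16.6 and Psap 437 CPM against 206, the latter not called once 11 cells rich in transcripts of other cell types were left out. Fabp5, a fatty acid binding protein, had 128 CPM against 33.3. Ccl8, a chemokine, had 87.4 CPM (80.4 to 94.9) against 0.615 CPM, the latter from few UMIs.

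Across all genes, few others differed. A gene was called higher or lower when it had at least 50 CPM in either cluster, a log2 ratio of at least 1 in size after 10 CPM were added to both sides, and the same direction in all 4 libraries. Of 2900 genes with at least 50 CPM, 28 were higher in GzmA+ Tex than in transitory Teff (0.966%) and 3 were lower (0.103%). Of the 28, 15 belonged to the lists of non-T-cell genes alone, 7 to the T cell lists, and 6 to no list (Ccl8, Wfdc17, Aif1, Selenop, Ifitm3 and Gngt2). The clusters were made from these same expression values, so the ratios are a description of the cluster and no test was applied. By list, 3 of 3 measured complement genes were called higher, as were 3 of 4 of macrophage identity, 4 of 5 of MHC class II, 2 of 2 of Fc receptors and myeloid signalling (Fcer1g and Tyrobp, which also stand in the T cell lists), 2 of 3 of lipid handling, 1 of 3 of iron and heme handling and 2 of 11 of lysosome and cathepsins, where measured means at least 50 CPM. The median log2 ratio with 10 CPM added was 3.57 for complement, 3.43 for macrophage identity and 3.49 for MHC class II, beside 0.01 for all 2900 genes.

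The transcripts differed in how many cells held them. C1qa UMIs were found in 340 of the 571 cells, at most 20 in a cell, and the 5 cells with the most held 8.40% of them. Cd74 was found in 68.7% of the cells and Apoe in 63.0%. Lyz2, a lysozyme of macrophages, monocytes and neutrophils, had 1897 UMIs, of which 1201, or 63.3%, were in 5 cells. Its level accordingly varied between libraries, with 283, 673, 75.3 and 117 CPM. Of the 28 genes called higher, 26 had a UMI in over 100 cells, and 3 (Lyz2, Jchain and Ifitm3) had over 50% of their UMIs in 5 cells.

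**Figure D2:**
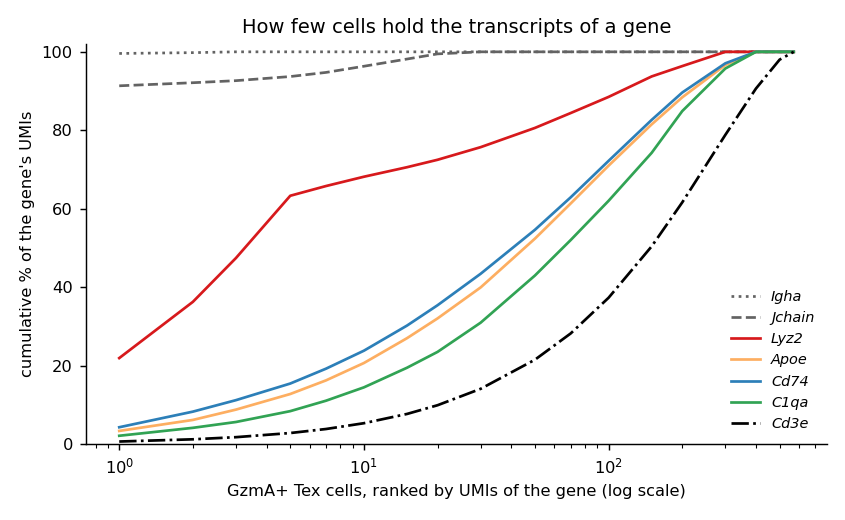
Cumulative share of a gene's UMIs (vertical axis, percent) in GzmA+ Tex cells ranked by their UMIs of that gene (horizontal log axis). For Igha, 1 cell held 99.6% of the UMIs, and for Lyz2 5 cells held 63.3%, whereas C1qa (8.40% in 5 cells), Apoe and Cd74 were spread over more cells and Cd3e over most.

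A group of 11 cells was set apart after their values were seen. Each held at least 5% of the UMIs of Lyz2, S100a8, Fn1, Siglech, Igha, Igkv8-27, Jchain or Hbb-bs in the cluster. The 5 cells with the most Lyz2 had 134 to 416 Lyz2 UMIs and 11 to 41 UMIs of Fn1 in 4 of them, with 17 to 87 UMIs of Ly6c2 and no UMI of C1qa, C1qb, C1qc, Cd3e or Cd8a. Another cell, of library 3, held 479 of the 481 Igha UMIs of the cluster, 1506 of the 1534 of Igkv8-27 and 348 of the 381 of Jchain, transcripts of a plasma cell, and no Cd3e or Cd8a. The 41 UMIs of Siglech, a receptor of plasmacytoid dendritic cells, were in 4 cells. A TCR was called in 2 of the 11 cells, a Cd3e or Cd3g UMI was found in 6 and a Cd8a UMI in 3. One of those with a TCR had 31 Cd3e and 13 Cd8a UMIs beside 6 of Siglech. Without these 11 cells, Lyz2 had 109 CPM in place of 291 and Jchain 5.16 CPM in place of 58.4, while C1qa had 147 CPM in place of 144 and Apoe 278 in place of 274. Without them 25 of the 28 genes were still called higher, and Jchain, Ifitm3 and Psap were not.

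Per cell, macrophage transcripts were a small share of the RNA but were found in nearly every cell of the cluster. The macrophage identity and complement lists together gave a median of 8 UMIs or 0.0762% of a cell's UMIs in GzmA+ Tex, with library medians of 0.0664% to 0.0856%. In each of the other 7 clusters the median cell had 0 UMIs. There were 17 GzmA+ Tex cells (2.98%) without such a UMI, against 68.0% of transitory Teff and 90.6% of Tn. At least 10 UMIs were found in 247 GzmA+ Tex cells (43.3%), in 58 cycling cells (3.01%) and in at most 0.980% of the cells of any other cluster.

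Since deeper cells show more UMIs of any kind, the shares were also compared at equal depth. Thinning does not measure or remove free RNA, whose part in these values was not tested. At 2500 UMIs per cell, a complement UMI was found in 57.4% of GzmA+ Tex cells (53.3% to 61.5%; libraries 50.4% to 62.3%), 2.38% of transitory Teff, 7.35% of TIGIT+ Teff, 5.71% of cycling cells and 0.894% of Tn. With all UMIs of each cell counted, it was found in 88.4% of GzmA+ Tex cells and 2.61% of Tn cells, whose median depth was 7834 UMIs. An MHC class II UMI was found in 63.4% of GzmA+ Tex cells at 2500 UMIs (libraries 58.0% to 67.0%) and in 9.46% to 19.2% of the cells of the other clusters. Igkc, an immunoglobulin light chain of B cells, did not stand out in GzmA+ Tex. Its UMIs were found in 8.93% of GzmA+ Tex cells, 7.67% of transitory Teff and 11.7% of TIM-3+ Tex at equal depth. GzmA+ Tex held 0.102 Igkc UMIs for each UMI of the 3 C1q genes, the lowest value of the 8 clusters. The value was 0.659 for Tcm and TIGIT+ Teff, 0.990 for cycling cells, 1.14 for Tn and 1.42 for GzmB+ Teff. It was highest for transitory Teff, at 4.19, followed by 4.13 for TIM-3+ Tex.

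**Figure D3:**
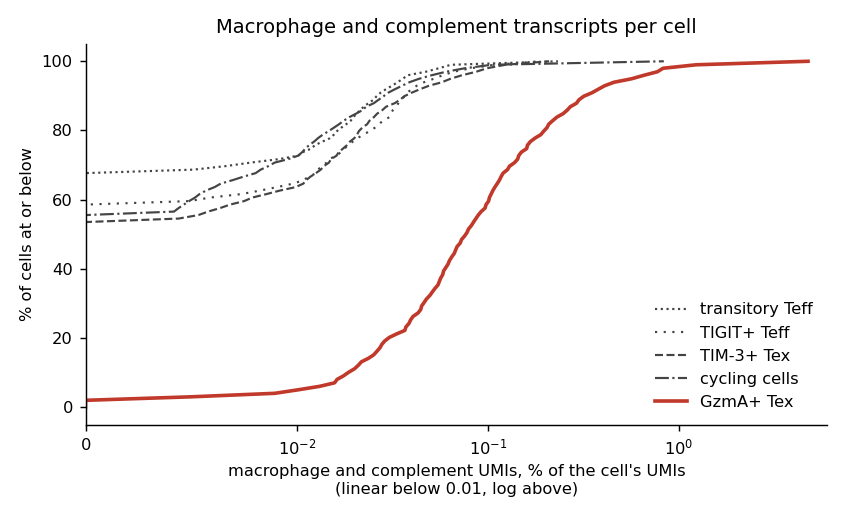
Share of cells (vertical axis, percent) with at most the given share of their UMIs from the macrophage identity and complement lists (horizontal axis, percent, linear below 0.01 and log above) in 5 clusters. The curve of GzmA+ Tex starts at 2.98% of cells without such a UMI and reaches its median at 0.0762%, while over 50% of the cells of the other 4 clusters had none.

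Of 92 T cell list genes with at least 50 CPM in either cluster, 7 were called higher than in transitory Teff, and Id3 and Klf2 lower. That was a larger share than the 28 higher and 3 lower of 2900 genes in all. The 15 T cell identity genes summed to 9686 CPM (libraries 9070 to 10476) against 10874 CPM. The log2 ratio of the sums was -0.33 to -0.12 over the libraries. None of the 15 was called, but 8 were lower in all 4 libraries, beside 555 of 2900 genes in all. Cd3e, a chain of the TCR complex, had 1518, 1237, 1177 and 1391 CPM in libraries 1 to 4 and 1619, 1491, 1492 and 1620 CPM in transitory Teff, lower in all 4 libraries with a log2 ratio of -0.19. Cd8a had 729 CPM against 726. Cd8b1, the CD8 beta chain, had 934 CPM against 1327, lower in all 4 libraries, and was the seventh of 8 clusters.

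No inhibitory receptor or exhaustion factor was called against transitory Teff, although the ratios depended on which transitory Teff cells were used. Pdcd1, which encodes PD-1, had 293, 209, 198 and 285 CPM in libraries 1 to 4 and 221, 275, 192 and 287 CPM in transitory Teff, and the pooled log2 ratio was 0.03 (-0.06 to 0.11). Tigit had 287 CPM against 338, Lag3 371 against 316 and Tox 291 against 324, each with the same direction in 3 of 4 libraries. TIM-3+ Tex had 509 CPM of Pdcd1, above GzmA+ Tex. Havcr2, which encodes TIM-3, was at 35.4 CPM against 17.2 CPM, higher in all 4 libraries but below the 50 CPM needed for a call and below the 76.7 CPM of TIM-3+ Tex. Against the 1324 transitory Teff cells whose Leiden number matches their name, the log2 ratio was 0.44 for Pdcd1, 0.58 for Lag3 and 1.58 for Havcr2. Of the 6 measured inhibitory receptors and the 7 measured exhaustion transcription factors none was called, and their median log2 ratios were 0.12 and -0.05. Over all 2900 genes 0.966% were called higher and 0.103% lower, so lists this short would mostly have no call.

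The same held for most effector genes. Gzma had 719, 716, 539 and 680 CPM in libraries 1 to 4 of GzmA+ Tex and 982, 434, 710 and 355 CPM in transitory Teff, lower in libraries 1 and 3 and higher in libraries 2 and 4. The pooled log2 ratio of 0.22 (0.17 to 0.27) therefore rested on which libraries were counted, and was -0.09 without library 4. Gzmb, encoding granzyme B, had 350 CPM against 401, Prf1, encoding perforin, 140 against 113, and Ifng 144 against 137. Gzmk had 349 CPM against 507, lower in all 4 libraries. Ccl3, a chemokine that T cells and macrophages both make, was called higher, with 1016, 1174, 712 and 705 CPM against 368, 420, 506 and 447 CPM.

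Genes of memory, quiescence and exit from tissue were lower. Klf2, a factor that keeps T cells quiescent and drives S1pr1, had 210, 267, 220 and 349 CPM in libraries 1 to 4 and 534, 653, 531 and 567 CPM in transitory Teff, with no overlap and a log2 ratio of -1.13 (-1.20 to -1.05). Id3, a factor of memory precursors, had 34.5 CPM against 88.9, and Ier3 43.1 against 104. These were the 3 genes called lower. Il7r, Slamf6 and S1pr1 were lower in all 4 libraries without a call, with 46.2, 68.4 and 29.8 CPM against 98.5, 125 and 66.1. The median log2 ratio of the 9 measured memory and naive genes was -0.49, with 1 called lower.

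Some NK receptor and cycling genes were higher. Of 7 measured NK receptor genes 4 were called higher: Klra7 and Klrb1c, with 88.6 and 65.2 CPM against 19.6 and 15.3, and the signalling adaptors Fcer1g and Tyrobp, with 232 and 209 CPM against 26.0 and 15.6. Fcer1g and Tyrobp are used by NK-like T cells and by macrophages and stand in T cell and non-T-cell lists, and Klra7 belongs to a family of near-identical genes whose reads can be split. The NK receptor list summed to 1462 CPM in GzmA+ Tex and 893 CPM in transitory Teff, and was highest in Tcm, with 2549 CPM. The sum of the cycling list was higher in GzmA+ Tex over all cells, with a log2 ratio of 0.65, but not in every library, where the lowest log2 ratio was -0.12. Of 6 measured cycling genes 2 were called higher, Mki67 with 55.8 to 94.2 CPM in the libraries against 23.0 CPM and Pclaf with 54.3 against 12.3, far below the 833 and 545 CPM of cycling cells. In any of the 5 Teff and Tex clusters, 107 T cell list genes had at least 50 CPM. GzmA+ Tex lay between the lowest and the highest of the other 4 clusters for 94 of them. It was above all 4 for 7 (Fcer1g, Hmgb2, Klra7, Pclaf, Stmn1, Tuba1b and Tyrobp). It was below all 4 for 6 (Cd2, Cd247, Cd8b1, Eomes, Gzmb and Lck).

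**Figure D4:**
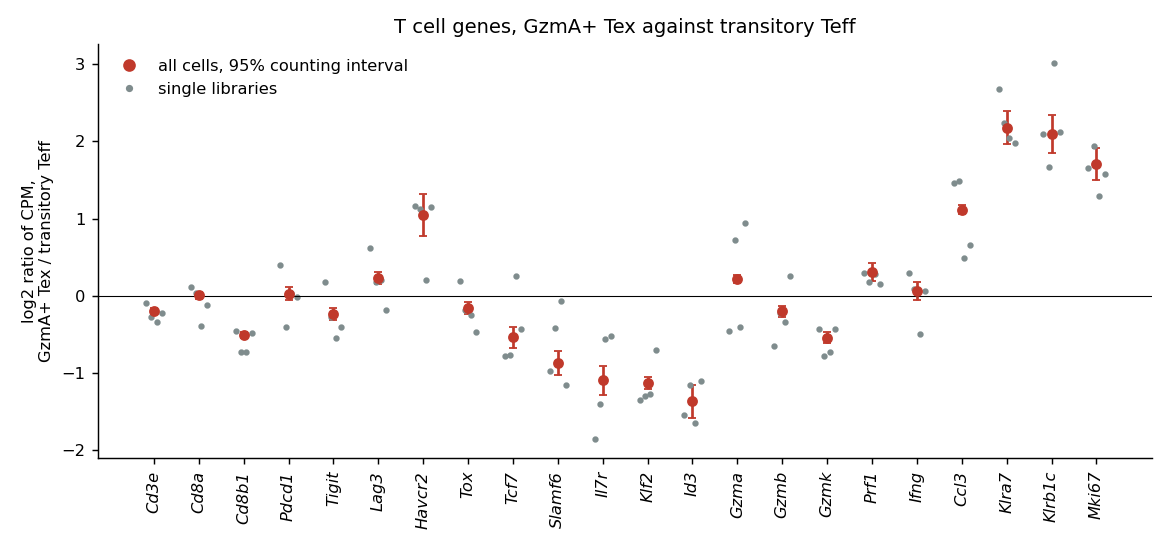
Log2 ratio of CPM in GzmA+ Tex to CPM in transitory Teff for 22 T cell genes, with red points and bars for all cells with the 95% counting interval and grey points for single libraries. Pdcd1 (0.03) and Cd8a (0.01) lie at 0, Gzma is split between the libraries, Klf2 (-1.13) and Id3 (-1.37) lie below 0 in the 4 libraries and Klra7 (2.18) and Mki67 (1.71) above.

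The TCR library was not used to make the clusters, and its clonotypes give a further reading of which T cells are in GzmA+ Tex. Transcripts of TCR genes such as Trac were among the expression values, and their removal before clustering is not stated. Each T cell clone carries its own rearranged TRA and TRB genes, and a clonotype is the set of cells that share them. A TCR was called in 234 of 571 GzmA+ Tex cells, or 41.0% (36.9% to 45.1%; libraries 35.8% to 44.5%), against 76.4% of transitory Teff. It was 44.6% in TIGIT+ Teff, 51.6% in cycling cells and 54.5% in TIM-3+ Tex. The share fell with depth in both clusters. Between 2500 and 5000 UMIs it was 80.0% in GzmA+ Tex and 88.4% in transitory Teff, and between 15000 and 25000 UMIs it was 8.70% and 24.8%. A pair of TRB chains, found in droplets with 2 T cells and in some single T cells, was called in 37 of the 234 cells, or 15.8% (11.4% to 21.1%), and in 7.62% of transitory Teff cells with a TCR, against 12.4% to 14.6% in GzmB+ Teff, TIGIT+ Teff, TIM-3+ Tex and cycling cells. In every range of depth the share was higher in GzmA+ Tex than in transitory Teff, with overlapping intervals. Between 2500 and 5000 UMIs the shares were 10.9% and 5.21%, and between 5000 and 7500 UMIs they were 6.76% and 6.18%. They were 14.6% and 9.49% between 7500 and 10000, 38.2% and 22.7% between 10000 and 15000, and 35.7% and 27.6% between 15000 and 25000. In each range over 5000 UMIs, however, some clusters lay above GzmA+ Tex and others below. TIGIT+ Teff had 22.8% between 5000 and 7500, TIM-3+ Tex 18.0% between 7500 and 10000 and GzmB+ Teff 41.0% between 10000 and 15000. TIM-3+ Tex had 73.3% between 15000 and 25000, of 15 cells with a TCR. These intervals overlapped those of GzmA+ Tex as well. In libraries 1 to 4 of GzmA+ Tex there were 19, 9, 1 and 8 such cells. No doublets were removed, and the part of doublets in these values was not tested.

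The 234 cells fell into 167 clonotypes, of which 143 had 1 cell in GzmA+ Tex. A total of 62 clonotypes, with 128 cells or 54.7% of those with a TCR (48.1% to 61.2%; libraries 45.3% to 63.2%), were also found in another cluster of the same library. The share was 69.9% in transitory Teff, 90.4% in TIM-3+ Tex and 1.19% in Tcm. Transitory Teff shared 55 clonotypes with GzmA+ Tex, which were 32.9% of the clonotypes of GzmA+ Tex and 9.39% of the 586 of transitory Teff. Cycling cells shared 49 and TIM-3+ Tex 35, or 26.3% of its own clonotypes, while Tn shared 9 and Tcm 3.

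The 5 clonotypes with the most GzmA+ Tex cells are shown by their CDR3 nucleotides, since these identify the clones that GzmA+ Tex shares with other clusters. They are printed 5′ to 3′ from the first to the last CDR3 base, and capitals mark the bases between the longest matches to the germline V gene end and J gene start in GENCODE M21.
clonotype 1 TRA (TRAV12-2, TRAJ27): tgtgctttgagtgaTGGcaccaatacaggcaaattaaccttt
clonotype 1 TRB (TRBV1, TRBJ2-1): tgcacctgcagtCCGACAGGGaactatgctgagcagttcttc
clonotype 1 second TRB (TRBV1, TRBJ1-4): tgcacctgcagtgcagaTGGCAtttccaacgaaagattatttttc
clonotype 2 TRA (TRAV9-1, TRAJ45): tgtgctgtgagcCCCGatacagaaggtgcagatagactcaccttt
clonotype 2 TRB (TRBV17, TRBJ2-7): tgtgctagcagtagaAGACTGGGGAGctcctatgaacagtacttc
clonotype 3 TRA (TRAV13D-1, TRAJ21): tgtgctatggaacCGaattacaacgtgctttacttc
clonotype 3 TRB (TRBV3, TRBJ2-2): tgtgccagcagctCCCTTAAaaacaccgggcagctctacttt
clonotype 4 TRA (TRAV12-2, TRAJ27): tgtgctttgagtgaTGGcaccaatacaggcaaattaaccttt
clonotype 4 TRB (TRBV1, TRBJ1-4): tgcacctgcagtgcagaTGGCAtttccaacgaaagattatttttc
clonotype 5 TRA (TRAV13N-1, TRAJ9): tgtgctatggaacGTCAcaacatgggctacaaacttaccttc
clonotype 5 second TRA (TRAV12D-3, TRAJ11): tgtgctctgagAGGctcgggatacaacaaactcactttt
clonotype 5 TRB (TRBV5, TRBJ2-7): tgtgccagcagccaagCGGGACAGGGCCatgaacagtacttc

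Clonotype 1, in library 1, had 8 cells in GzmA+ Tex, 15 in transitory Teff, 21 in TIM-3+ Tex and 35 among cycling cells, out of 95 in all. Its TRA and its second TRB are the same, base for base, as the chains of clonotype 4 of the same library, which had 7 GzmA+ Tex cells of 83. Its first TRB is the same as that of another clonotype of library 1, with 5 GzmA+ Tex cells of 170. All 8 GzmA+ Tex cells of clonotype 1 were therefore among the 37 with a pair of TRB chains. Clonotype 2, in library 2, had 7 of 110 cells in GzmA+ Tex and 64 in transitory Teff, and clonotype 3, in library 1, had 7 of 90 and 51. Clonotype 5, in library 4, had 6 of 75 cells in GzmA+ Tex and 49 in TIM-3+ Tex.

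T cell genes differed between the small and the large clones of GzmA+ Tex, whereas macrophage transcripts were present in both. Clone size was counted over all clusters of a library. In the 104 cells of clonotypes with 1 cell, Gzma had 84.2 CPM (66.3 to 105), and in the 111 cells of clonotypes of over 5 cells it had 1213 CPM (1137 to 1293). Gzma had 138, 109, 26.7 and 45.6 CPM in libraries 1 to 4 of the former and 848, 1847, 2012 and 944 CPM in the latter, without overlap. Tcf7, a factor of naive, memory and stem-like T cells, had 162 CPM in the clonotypes of 1 cell and 29.3 CPM in those of over 5. Pdcd1 had 115 CPM and 389 CPM, and Tox 157 and 424. C1qa had 166 CPM (141 to 195) in the former and 228 CPM (196 to 264) in the latter, and Cd74 760 and 686. In transitory Teff, Gzma had 779 CPM in clonotypes of 1 cell and 558 CPM in those of over 5, and the latter were higher in libraries 1 and 3 and lower in libraries 2 and 4.

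By their T cell genes, GzmA+ Tex cells were most like several other clusters, when each cell was set against the average profile of the other 7. GzmA+ Tex had no profile of its own among the 7, so each of its cells had to match another cluster. Whether it has a T cell profile of its own was not tested in this way. The comparison used 128 T cell list genes, none of them in a list of non-T-cell genes, and took the cluster under which the counts of the cell were most likely. By this measure 164 cells (28.7%) were most like TIM-3+ Tex, 146 (25.6%) transitory Teff, 105 (18.4%) Tcm, 72 (12.6%) TIGIT+ Teff, 38 (6.65%) cycling cells, 29 (5.08%) Tn and 17 (2.98%) GzmB+ Teff. Tn or Tcm was the best match of 23.5% of the cells (libraries 18.4% to 30.3%). It was the best match of 70 of the 104 cells in clonotypes of 1 cell and of 1 of the 111 cells in clonotypes of over 5. Gzma was at 1562 CPM in the cells most like TIM-3+ Tex and at 37.9 CPM in those most like Tcm. Macrophage and complement transcripts did not follow this order, with medians of 0.0658% to 0.0939% of UMIs over the 7 kinds of match. The best match led the next by less than 2 natural log units in 35 cells. Set against the same 7 profiles, 52.1% (TIGIT+ Teff) to 91.5% (Tcm) of the cells of another cluster matched their own, with 56.0% in transitory Teff. For these clusters, unlike GzmA+ Tex, their own profile was an option. Tn and Tcm were the best matches of 8.99% and 3.91% of transitory Teff, 12.7% and 5.60% of GzmB+ Teff and 3.55% and 11.5% of TIGIT+ Teff. In TIM-3+ Tex these shares were 0% and 1.14%, and in cycling cells 0.467% and 0.519%.

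**Figure D5:**
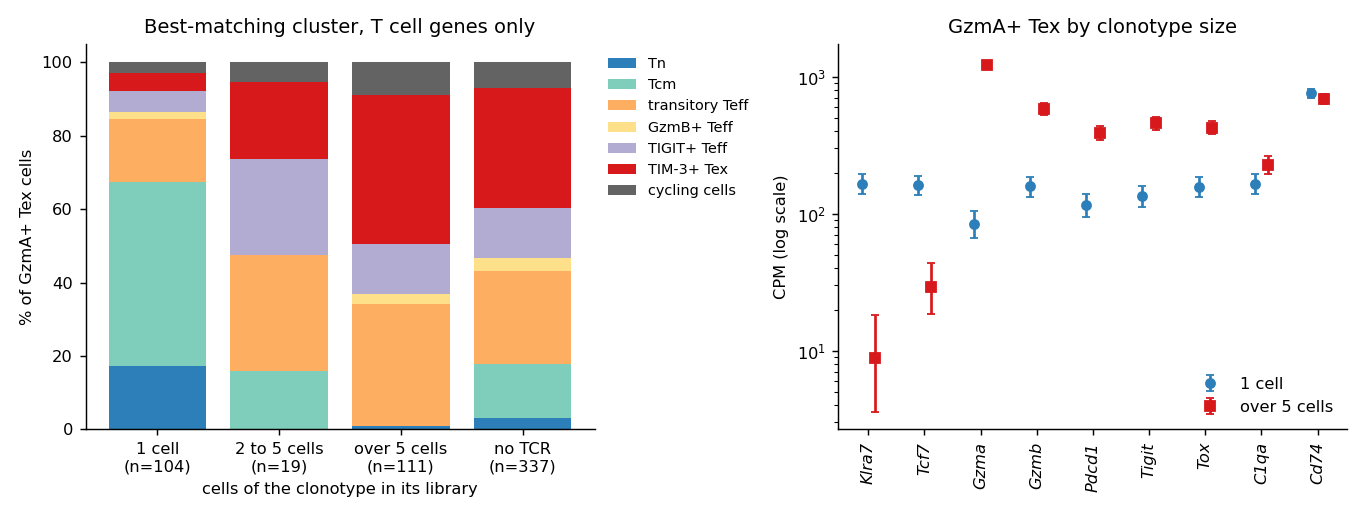
Left, share of GzmA+ Tex cells (percent) by the cluster their T cell genes matched best, for 3 sizes of clonotype and for cells without a TCR; right, CPM (log axis) of 9 genes in clonotypes of 1 cell and of over 5 cells, with points for all cells and bars for the 95% counting interval. Tn or Tcm was the best match of 70 of 104 cells in clonotypes of 1 cell and of 1 of 111 in those of over 5, and Gzma was at 84.2 and 1213 CPM, Tcf7 at 162 and 29.3 and C1qa at 166 and 228.

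GzmA+ Tex and transitory Teff were also compared within the clones that they shared. The 55 clonotypes found in both clusters had 121 cells in GzmA+ Tex and 672 in transitory Teff. C1qa had 238 CPM in the former and 1.08 CPM in the latter (log2 ratio 7.79, 6.41 to 9.68), and Cd74 had 668 and 14.0 CPM. Pdcd1 was close, with 381 and 374 CPM (log2 ratio 0.03, -0.15 to 0.21), as was Tigit with 456 and 501 CPM. Lag3 had 538 and 454 CPM (log2 ratio 0.25, 0.09 to 0.40) and Havcr2 50.7 and 15.9 CPM (log2 ratio 1.67, 1.07 to 2.27), and both were higher in 3 libraries. Klf2 was at 321 and 614 CPM, lower in all 4 libraries, and Tcf7 at 35.0 and 109 CPM, lower in 3. Xcl1, a chemokine that attracts cross-presenting dendritic cells, was at 147 and 593 CPM, lower in 3 libraries. Klra7, which was higher over all cells, was at 7.24 and 9.42 CPM within these clones. Gzma was higher in all 4 libraries, with 965 and 339 CPM, but its log2 ratio of 1.51 became 0.47 when each clonotype had the same weight.

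Within GzmA+ Tex, cells were also divided into 3 ranges of equal size by their share of macrophage and complement UMIs, with 191, 190 and 190 cells up to 0.0509%, up to 0.117% and up to 4.74%. The median depth was 12498, 10720 and 8070 UMIs, and 84 and 36 cells lay within 0.01 percentage points of the lower and the upper limit. Some T cell genes differed between the highest and the lowest range in all 4 libraries and others did not. Pdcd1 and Gzma did not, with log2 ratios of -0.10 (-0.27 to 0.08) and 0.05 (-0.05 to 0.15). Ifng and Ccl4 were lower in the highest range in all 4 libraries, with log2 ratios of -0.51 and -0.60, as were Tcf7, Id3, Il7r and Klrb1c, with -0.46, -0.71, -0.54 and -0.55. Tox was higher in all 4 libraries, with 0.24. Mki67 had 42.8, 60.4 and 135 CPM from the lowest to the highest range, higher in the highest than in the lowest in all 4 libraries. Mki67 is a marker of dividing cells that T cells and macrophages can both express. From the lowest to the highest range, 30.9%, 39.5% and 52.6% of cells had a called TCR, while the median depth went the other way.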

How the data were processed

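Single CD8+ T cells from 4 libraries were sequenced on the 10x 5′ platform for gene expression and TCR. Per the labels the authors used Cell Ranger 7.00 and mm10. Per the methods they downsampled reads across libraries, kept cells by UMI number, mitochondrial share and Cd3e/g and Cd8a expression, clustered with Monocle3 and combined TCR chains with scRepertoire. The deposited expression values are raw UMI counts per gene and cell. The mitochondrial share was deposited by the authors as a fraction of UMIs. Cells held 2502 to 24983 UMIs and libraries 15556967 to 38440687. No removal of doublets is stated and none was made. Library numbers could not be tied to treatments, so treatments were not compared.

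UMIs were summed per cluster and divided by all UMIs of its cells to give CPM, which for 5′ UMIs needs no scaling to gene length. Intervals are Poisson for CPM, conditional binomial for ratios and Clopper-Pearson for shares. No p-value was computed, since the clusters were made from the same values and there are no replicate libraries. Gene names and coordinates are from GENCODE M21 (GRCm38), which gave a symbol to 17534 of 17561 genes. Shares of cells with a UMI were taken after thinning to 2500 UMIs (seed 7). The work was done in Python 3.11.15 with pandas 2.3.3, scipy 1.17.1, matplotlib 3.10.9 and numpy 2.4.6, and the calls were tested on simulated data. Of 266 genes in 26 lists, 262 were in the table.

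The genes named by rule are the cluster's markers (Lyz2, Cd74, Apoe, Gzma), a set of exhaustion, effector and T cell genes, up to 4 genes per list with the largest ratio among those of at least 50 CPM and of the same direction in all 4 libraries, list members at 0, the highest and lowest ratios outside the lists, and the 5 clonotypes with the most GzmA+ Tex cells, a tie at 6 cells being broken by the cells in all clusters. The cluster and the lists were chosen with earlier results of these data known. The 11 cells set apart, the shorter macrophage list, the removal of cells with a pair of TRB chains from the shared clonotypes, the list sums without a library, the best-match measure and genes named outside the rule (among them Csf1r, Adgre1, Fn1, Siglech, Igha, Igkc, Hbb-bs and Xcl1) were chosen after values were seen. Alternatives were thinning, equal weight per cell, cells whose Leiden number matches their name, cells with a TCR, a comparator of 4 Teff and Tex clusters, other added CPM and minimum CPM, and leaving out each library.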

Additional observations from a re-analysis of the deposited data

How the results depend on the processing

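The log2 ratio of summed macrophage and complement CPM to transitory Teff, 4.13 with all cells, was 4.26 after thinning, 4.30 with every cell weighted equally, 4.23 with matching Leiden numbers, 4.43 in cells with a TCR, 3.91 against 4 Teff and Tex clusters and 3.93 without the 11 cells set apart (4.01 to 4.27 when 1 library was left out). Gzma changed direction, to -0.080 after thinning, -0.10 with equal weights, -0.19 with matching Leiden numbers, -0.13 in cells with a TCR and -0.11 against 4 clusters (-0.090 to 0.62 without 1 library). Matching Leiden numbers left 1324 of the 1891 transitory Teff cells and turned Tigit to 0.014 and Tox to 0.071, with Pdcd1 at 0.44, Lag3 at 0.58 and Havcr2 at 1.58. Against 4 clusters, Havcr2 was -0.34, Lag3 -0.16 and Prf1 -0.14. Without 1 library, Lag3 ranged from -0.014 to 0.41, Gzmb from -0.41 to 0.027 and Tox from -0.37 to 0.018. Genes called lower numbered 8 with matching Leiden numbers, 6 with a TCR, 5 against 4 clusters, 6 with 1 CPM added and 7 at a minimum of 10 CPM (2 to 6 without 1 library), and genes called higher 88 at a minimum of 10 CPM (27 to 28). With all UMIs the shares of cells with a UMI were 91.1% for macrophage identity, 88.4% for complement and 86.2% for MHC class II. After thinning, the share for macrophage identity was 56.0% without Maf, Cd68 and Axl. For the whole list it was 62.3% to 64.6% after thinning when 1 library was left out. With at least 2 cells in each cluster, 23 clonotypes were shared with transitory Teff, 20 with cycling cells and 16 with TIM-3+ Tex (35 to 48, 31 to 43 and 20 to 33 without 1 library, for which fewer cells were counted). The ratio of Gzma between the highest and lowest range was 0.40 after thinning and -0.053 without cells with a pair of TRB chains (-0.035 to 0.16 without 1 library). Where no construction of the alternative shows it, the cause was not tested. Between treatments, no paired analysis was possible because no treatment has replicates and the library numbers name none. Paired by library, the mean of the single-library ratios of GzmA+ Tex to transitory Teff was 4.04 for the summed macrophage and complement CPM and 0.20 for Gzma.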

Other observations

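Lists of other cell types gave lower sums than the macrophage list in GzmA+ Tex, apart from monocytes and dendritic cells. The neutrophil list summed to 48.0 CPM against 6.00 in transitory Teff, with 16.3 to 129 CPM over the libraries, and 26.4 CPM without library 2 or 22.4 CPM without the 11 cells set apart. The B and plasma cell list summed to 325 CPM (libraries 161 to 1226) against 165. Without library 3, which held the cell with most of the Igha UMIs, the sum was 190 CPM. The erythroid list had 63.8 CPM against 31.7, the list of megakaryocytes, mast cells and basophils 6.90 against 0.231, stroma and endothelium 17.9 against 13.9, and CD4 and regulatory T cells 7.97 against 7.69. Monocyte and dendritic cell genes, which include Ly6c2, a gene that T cells also express, summed to 1048 CPM against 1059. Genes listed at 0 UMIs in GzmA+ Tex included Gzmf, Ms4a1, Retnlg, Ppbp, Itga2b and Lepr.

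Costimulatory receptors, homing receptors and interferon-induced genes had no gene called, with median log2 ratios of -0.03, -0.14 and 0.23 over 6, 10 and 4 measured genes. Cytotoxic granule genes had none called of 11, with a median of -0.15. At the shares called over all genes, 0.966% higher and 0.103% lower, most lists of these sizes would have none. Of 6 measured effector transcription factors 1 was called lower, and of 5 effector cytokines and chemokines 1, Ccl3, was called higher.

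Per UMI of the 3 C1q genes, GzmA+ Tex held 0.586 UMIs of Apoe, 1.03 of Cd74 and 0.623 of Lyz2, and the other 7 clusters held 0.339 to 0.607, 0.725 to 1.69 and 0.143 to 0.331. For Lyz2 the value rested on few cells: it was 0.397 without library 2, and without the 11 cells set apart it was 0.229, within the range of the other clusters.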
